A study of Bos taurus with 12 samples.

Results

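Histone genes encode the proteins around which DNA is wound, and their RNA was followed here in bovine oocytes before and after meiotic maturation. A gene was taken as a member if it was protein-coding and its symbol began with HIST, H1-, H2A, H2B, H3-, H3C, H4- or H4C, or if its annotation held the term for a structural constituent of chromatin. The rule took 102 of 16675 genes, of which 14973 were protein-coding. Symbol and annotation both chose 63 members, annotation alone 37 and symbol alone 2 (H1-8 and H1-7). Of the members, 33 carry only an Ensembl identifier in the files, and these are given no name or role here. The rule also took 3 genes that encode no histone: ASF1A and ASF1B, chaperones that hand histones over for deposition, and NEFH, the heavy chain of neurofilaments. They were kept as members and are described apart.

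Per the labels, the oocytes were cultured in vitro and were either at the germinal vesicle (GV) stage, before the first meiotic division, or mature, in second-division metaphase (MII). The labels give no breed, age, treatment or pooling, nor whether a stage's libraries come from different animals or cultures, and p-values reflect only the spread between libraries, which may be technical. For each stage there were 3 input libraries, made from poly(A) RNA, and 3 of such RNA pulled down with an antibody against N6-methyladenosine (m6A), a methyl mark on adenosines inside mRNA. Levels are given for the 6 input libraries, and each stage had 1 list of m6A peaks.

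The core histones (H2A, H2B, H3 and H4) form the nucleosome, and H1 linker histones bind the DNA where it enters and leaves. Most core and linker histones come from clustered, mostly intronless genes that are read in S phase, and their mRNAs typically end in a stem-loop bound by the protein SLBP instead of a poly(A) tail. Replication-independent variants such as H3.3, H2A.Z and the centromeric CENPA come from single genes with ordinary polyadenylated mRNAs, and oocytes store histone mRNA and protein for the divisions that follow fertilization. The libraries were selected on oligo(dT), so levels are those of bead-bound RNA, and a change of tail cannot be told apart from a change of RNA amount.

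Input libraries of a stage ranked the genes alike, with Spearman's correlations of at least 0.986 across genes within GV, at least 0.983 within MII and at most 0.918 between the stages. These correlations run across genes, which are no independent replicates. Sequence depth, estimated from the spacing of low values, was 4.61 gigabases for MII library 3 and 3.44 to 3.57 gigabases for the other input libraries. At the best spacing 46.2% to 61.9% of these values lay on whole steps, so the estimate is rough. The oocyte markers were present in every library, with a summed level of 1929 to 1935 FPKM (fragments mapped, scaled by transcript length and library size) in GV and 2722 to 2863 FPKM in MII, and 8 of 12 rose while 1 fell. Of 14 cumulus and granulosa markers in the table, 4 of the 6 tested fell and 1 rose, and their sum was 58.9 to 63.1 FPKM in GV and 40.9 to 42.0 FPKM in MII. Their means in GV and MII were 34.3 and 21.5 FPKM for HAS2, 10.5 and 6.50 for COL4A1, 6.31 and 0.429 for VIM, and 2.39 and 5.73 for GREM1. The means of FSHR, INHA, CYP19A1 and KRT8 were below 1 FPKM in both stages. Of 5 blood and theca markers in the table, 2 of 3 tested rose, and their sum was 5.96 to 6.73 FPKM in GV and 9.45 to 11.9 FPKM in MII. The part of other cell types in the histone results was not tested. In bulk libraries fewer cells of a type and less RNA per cell cannot be told apart.

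Histone RNA was lower in MII than in GV oocytes for most members. Of the 80 members whose 6 input libraries averaged 1 FPKM or more, 54 fell, 8 rose and 18 did not pass the test (limma on log2(FPKM + 1), adjusted p under 0.05 over all 11739 genes tested). Over all genes tested, 28.8% fell and 32.0% rose. The median change of the tested members was -0.63 on the log2 scale, against 0.01 for all genes tested. The 3 MII libraries lay below the 3 GV libraries without overlap for 54 of the 80 tested members, and over all genes tested this was so for 32.3%. These were the same 54 members that fell, so the separation is no result apart from the call. The remaining 22 members had means from 0.00277 to 0.979 FPKM and were not tested. A member near the limit could pass it through 1 stage alone, and 6 of the tested members had a mean below 1 FPKM in one stage. That stage was GV for H2AC11 and MII for H2AZ1, H1-12, H1-10, ENSBTAG00000034949 and ENSBTAG00000047432. With no filter, the fit covered all 102 members, of which 57 fell and 9 rose, with a median of -0.49. Over all 16675 genes in that fit, 3603 fell and 5095 rose, with a median of 0.09. Genes listed at 0 numbered 3722 to 3765 per GV library and 1282 to 1727 per MII library.

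Among abundant members the fall was the usual outcome. Of the 32 members with a mean of at least 100 FPKM, 29 fell, 1 rose and 2 did not pass the test. Histone mRNAs were among the most abundant protein-coding RNAs of both stages: 7 of the first 10 genes by FPKM, a length-scaled level, were members in GV and 5 were in MII. Among the first 100 there were 17 members in GV and 13 in MII. The summed level of all 102 members was 34863, 34160 and 33867 FPKM in GV libraries 1, 2 and 3, and 20866, 21638 and 20989 FPKM in the MII libraries. The MII sum was 61.7% of the GV sum, and the ranges did not overlap.

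**Figure D1:**
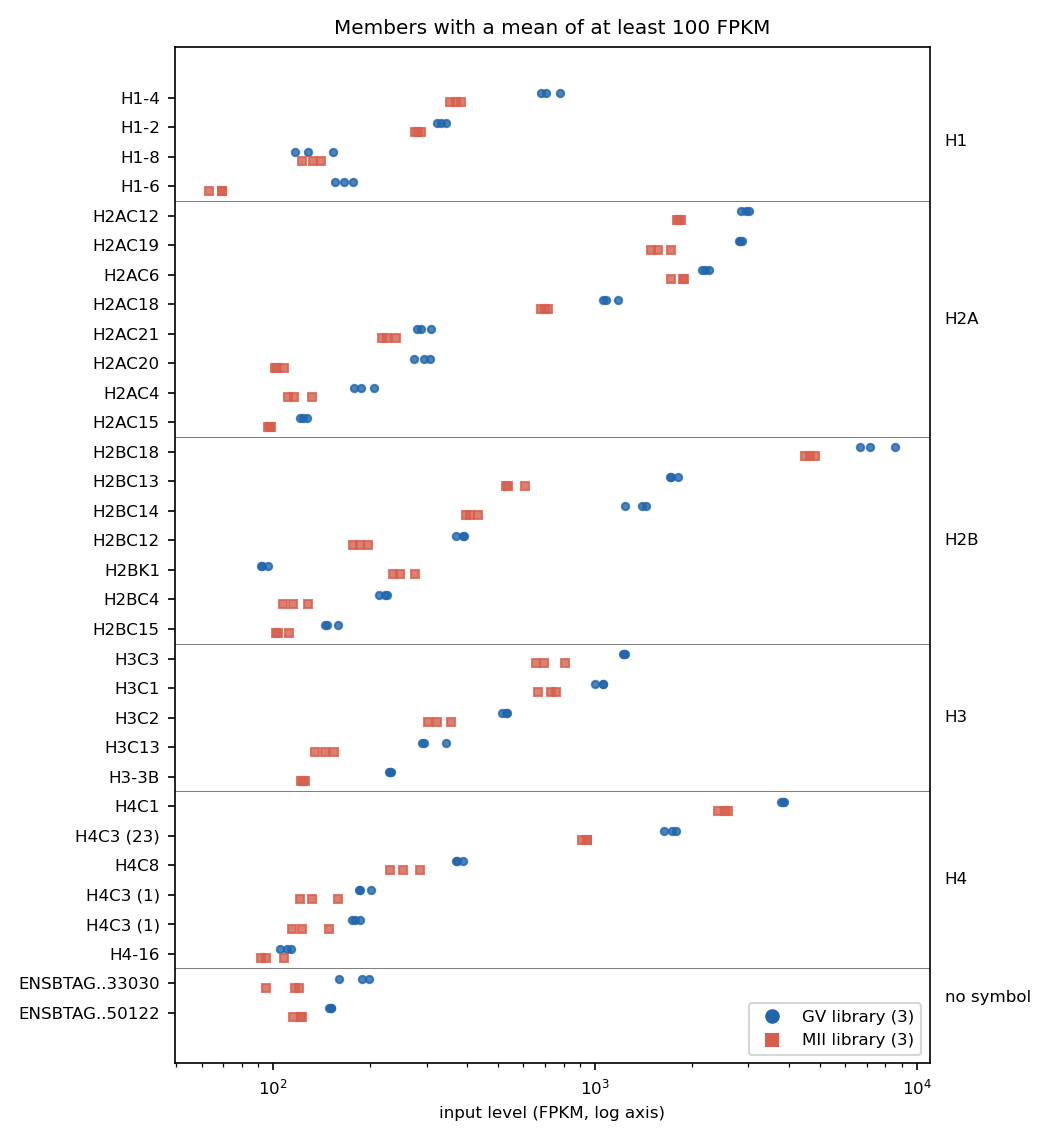
Input level in FPKM (log axis) of the 32 members with a mean of at least 100 FPKM, by histone class, with 1 circle per GV library and 1 square per MII library; the number after H4C3 is the chromosome of that copy, and the identifiers are shortened. The squares lie left of the circles for 29 members, H2BK1 is the member whose squares lie to the right, and H1-8 and H4-16 overlap.

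Of 55 members that lie in a histone cluster or carry a cluster symbol, 50 were tested, and 42 fell, 1 rose and 7 did not pass. Of 10 replication-independent variants, 9 were tested, and 4 fell, 3 rose and 2 did not pass. The median change was -0.68 for the clustered members and -0.27 for the variants, and the difference between these groups was not tested. By position, the cluster on chromosome 23 had 29 of 37 tested members lower and 1 higher. The smaller cluster on chromosome 3 had all 8 lower, and so had the cluster of 3 on chromosome 7 (H2AW, H2BU1 and H3-4). The summed level in MII was 59.6%, 60.7% and 49.8% of that in GV for the clusters on chromosomes 23, 3 and 7. The sum of the 10 variants in MII was 77.7% of the GV value (463 FPKM in GV and 360 FPKM in MII). Counted in neither group were H2BK1, H4-16 and H2B, named histone genes outside the clusters. Their sum in MII was 173% of that in GV, with H2BK1 at 93.6 FPKM in GV and 254 FPKM in MII.

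H2B members showed the deepest fall of a class sum. Their summed level was 11575 ± 850 FPKM in GV and 6384 ± 226 FPKM in MII (SD, n = 3), so that MII stood at 55.2% of GV. Of 12 tested H2B members, 10 fell, 1 rose and 1 did not pass. H2BC18 (chromosome 3, 20779441 to 20779821, plus strand; no build is named in the sources used here) was the most abundant protein-coding gene of the table in both stages. It stood at 8588, 7165 and 6661 FPKM in GV and at 4652, 4828 and 4513 FPKM in MII. All 3 MII libraries were lower, although the GV libraries themselves spread widely, and the change was -0.67 ± 0.09 (log2 ± SE, adjusted p = 0.000557). Quantile normalization, which sets the same values at each rank of every library, made it -0.29 (adjusted p = 0.0063).

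A pair of H2B genes on chromosome 23 fell further than the most abundant one. H2BC13 went from 1709, 1719 and 1809 FPKM in GV to 529, 606 and 537 FPKM in MII, a fall to a level 3.13 times lower (log2 change -1.65, adjusted p = 1.48e-06). H2BC14 went from 1243, 1440 and 1404 FPKM to 410, 433 and 398 FPKM, 3.29 times lower (log2 change -1.71, adjusted p = 1.61e-06). Both therefore left the leading ranks: H2BC13 was ninth by level in GV and H2BC14 thirteenth, and in MII they ranked 40 and 61 among protein-coding genes. Within both genes the stages were far apart and the libraries of a stage close together. No other gene of the table overlaps H2BC13. H2BC14 spans 47581 bp and overlaps H2BC15, H2AC14, H2AC15, H4C11, H4C12 and H4C13, so its level is less certain. H2BC12 and H2BC4 fell by 1.03 and 0.92 on the log2 scale, and H2BC15 and H2BC3 by 0.50 and 0.33. H2BC6, at 6.87, 6.19 and 6.36 FPKM in GV and 2.61, 1.29 and 1.87 FPKM in MII, fell by 1.38, or by 0.73 with a pseudocount of 5.

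H2BK1 went the other way. This H2B gene on chromosome 4 (113782741 to 113785400, minus strand), outside the clusters, stood at 92.6, 91.7 and 96.6 FPKM in GV and at 236, 277 and 247 FPKM in MII. Its MII libraries were all more than double the GV libraries in level, with a ratio of MII to GV of 2.71 (log2 change 1.42 ± 0.06, adjusted p = 3.08e-06). The H2B member that did not pass was H2BC5, at 7.66, 4.19 and 8.44 FPKM in GV and 3.80, 2.71 and 5.13 FPKM in MII (log2 change -0.65, adjusted p = 0.065). Its libraries overlapped between the stages, and with single libraries left out the adjusted p ranged from 0.011 to 0.20.

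H2A members held the next largest sum, 10398 ± 186 FPKM in GV and 6790 ± 179 FPKM in MII (SD, n = 3), so that MII stood at 65.3% of GV. Of 16 tested, 13 fell, 2 rose and 1 did not pass, with a median change of -0.51. The most abundant were H2AC12, H2AC19 and H2AC6. H2AC12 stood at 2853, 3005 and 2960 FPKM in GV and at 1848, 1800 and 1823 FPKM in MII (log2 change -0.69, adjusted p = 1.13e-05). H2AC19 stood at 2807, 2827 and 2858 FPKM in GV and at 1572, 1724 and 1500 FPKM in MII (log2 change -0.83, adjusted p = 2.13e-05). In both genes every MII library was well below every GV library, and under quantile normalization the changes were -0.37 and -0.48.

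H2AC6 changed less than its abundant neighbours in rank. It stood at 2151, 2194 and 2256 FPKM in GV and at 1887, 1884 and 1727 FPKM in MII, without overlap (log2 change -0.26, adjusted p = 0.0023). Its direction turned under quantile normalization, with a change of 0.12 (adjusted p = 0.017), and its adjusted p over all alternatives ranged from 0.000606 to 0.017. H2AC20 on chromosome 3 fell furthest among the abundant H2A genes, from 307, 274 and 295 FPKM in GV to 101, 108 and 103 FPKM in MII (log2 change -1.48, adjusted p = 1.32e-06). H2AC21, which lies inside the span of H2AC20 on the opposite strand, fell by 0.36, from 292 ± 16 to 228.0 ± 11 FPKM (SD, n = 3). H2AC14 fell by 0.21 (adjusted p = 0.018). That call was lost without GV library 3 (adjusted p = 0.064), MII library 1 (0.059) or MII library 2 (0.051), and with eBayes without a trend (0.051).

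Of the 50 tested clustered genes, H2AC11 was the 1 that rose, at a low level. It stood at 0.444, 1.31 and 0.730 FPKM in GV and at 4.68, 2.73 and 3.86 FPKM in MII, all above GV (log2 change 1.38, adjusted p = 0.0013). The GV mean was under the limit of 1 FPKM, so this gene passed the filter through its MII libraries. Its change was 2.13 with a pseudocount of 0.1 and 0.58 with a pseudocount of 5. H4C13, a clustered gene below the limit, was listed at 0 in every GV library and at 3.32, 0.627 and 1.87 FPKM in MII, and it was called higher in the fit with no filter (adjusted p = 0.011).

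The H2A.Z pair split, with limits on both calls. H2A.Z is a variant placed near gene starts, encoded by H2AZ1 and H2AZ2. H2AZ1 (chromosome 6, 24736918 to 24739414, plus strand) stood at 5.13, 9.82 and 4.96 FPKM in GV and at 0.315, 0.823 and 0.899 FPKM in MII. Every MII library was below 1 FPKM and every GV library well above it, and the fall was 2.15 on the log2 scale (adjusted p = 0.000307). With an MII mean of 0.679 FPKM, H2AZ1 passed the filter through its GV libraries. The change of this low gene depended on the pseudocount and was -1.01 with a pseudocount of 5. H2AZ2 stood at 24.5, 32.1 and 32.0 FPKM in GV and at 34.0, 36.8 and 38.8 FPKM in MII, a rise of 0.31 (adjusted p = 0.040). The stages did not overlap, and GV library 1 was the lowest. Without it the change was 0.18 (adjusted p = 0.065). The call was also lost without MII library 1 (adjusted p = 0.053), library 2 (0.097) or library 3 (0.12), and over all alternatives the adjusted p ranged from 0.013 to 0.12. H2AJ, another H2A variant, stood at 1.82 ± 0.85 FPKM in GV and 1.34 ± 0.70 FPKM in MII (SD, n = 3) and did not pass the test (log2 change -0.27, adjusted p = 0.44).

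H3 members summed to 3499 ± 75 FPKM in GV and 2162 ± 136 FPKM in MII (SD, n = 3), with MII at 61.8% of GV. Of 11 tested, 7 fell, 1 rose and 3 did not pass. The clustered gene H3C3 stood at 1225, 1233 and 1244 FPKM in GV and at 659, 807 and 693 FPKM in MII (log2 change -0.78, adjusted p = 7.64e-05). H3C1 stood at 1002, 1057 and 1062 FPKM in GV and at 665, 729 and 757 FPKM in MII (log2 change -0.54, adjusted p = 0.000124). H3C2 and H3C13 fell by 0.68 and 1.09. For all 4 the MII libraries lay below the GV libraries. Under quantile normalization the changes of H3C3 and H3C1 were -0.51 and -0.29. H3C4, H3C6 and H3C7, at 6.53 to 16.8 FPKM on average, had changes of 0.27, -0.04 and -0.19 and did not pass (adjusted p = 0.33, 0.85 and 0.22).

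The genes of the variant H3.3 also split. H3.3 is deposited outside replication, and H3-3A and H3-3B encode the same protein. H3-3B (chromosome 19, 55821418 to 55823783, plus strand) stood at 232, 231 and 230.1 FPKM in GV and at 122, 124 and 125 FPKM in MII. Libraries of a stage hardly differed, and the fall was 0.89 ± 0.03 (log2, SE; adjusted p = 1.6e-06). H3-3A stood at 34.7, 38.4 and 34.9 FPKM in GV and at 41.3, 39.1 and 45.9 FPKM in MII, a rise of 0.22 (adjusted p = 0.031). Its nearest GV and MII libraries were close, and the call was lost without GV library 1 (adjusted p = 0.090), GV library 3 (0.090), MII library 1 (0.062) or MII library 3 (0.089). Over all alternatives its adjusted p ranged from 0.022 to 0.12. The fall of H3-3B is on the larger level, so the summed level of both genes was lower in MII.

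CENPA, which marks the centromere, fell from 9.87, 7.58 and 8.03 FPKM in GV to 4.78, 5.46 and 5.26 FPKM in MII (log2 change -0.62, adjusted p = 0.0027; -0.41 with a pseudocount of 5). H3-4, the clustered gene for an H3 known from the testis in humans, fell by 0.75 from 79.96 ± 9.6 to 47.3 ± 8.6 FPKM (SD, n = 3). H3-5 was below the limit, at a mean of 0.516 FPKM. It was listed at 0 in every GV library and at 0.756, 0.913 and 1.42 FPKM in MII. Without the filter its change was 1.01 (adjusted p = 0.000958), with no spread among its GV values.

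H4 members summed to 6594 ± 128 FPKM in GV and 4172 ± 131 FPKM in MII (SD, n = 3), with MII at 63.3% of GV. Of 13 tested, 10 fell and 3 did not pass. H4C1, the second most abundant protein-coding gene in GV and the fourth in MII, stood at 3793, 3872 and 3853 FPKM in GV and at 2421, 2533 and 2597 FPKM in MII (log2 change -0.61, adjusted p = 2.66e-05). The symbol H4C3 names 3 rows of the table, and the copy on chromosome 23 (ENSBTAG00000052609) stood at 1643, 1738 and 1791 FPKM in GV and 946, 915 and 943 FPKM in MII (log2 change -0.88, adjusted p = 5.82e-06). Quantile normalization made these changes -0.29 for H4C1 and -0.50 for that copy of H4C3. Both copies on chromosome 1 fell by less, 0.48 and 0.49, from GV means of 192 and 181 FPKM. H4 genes encode nearly the same protein and their coding sequences are alike, so the split of reads between them is uncertain.

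Among the lower H4 genes, H4C11, H4C7 and H4C9 fell by 1.20, 1.24 and 1.09 on the log2 scale, and H4C7 by 0.60 with a pseudocount of 5. H4C2 stood at 55.0, 56.4 and 48.8 FPKM in GV and at 39.6, 39.6 and 21.4 FPKM in MII (log2 change -0.71, adjusted p = 0.024). The third MII library was far below the other two, and the call was lost without GV library 1 (adjusted p = 0.065) or GV library 2 (0.068). Without MII library 3 the change was -0.42 (adjusted p = 0.0039), and without MII library 1 it was -0.85. H4-16, an H4 gene on chromosome 5 outside the clusters, stood at 105, 110.3 and 114 FPKM in GV and at 108, 92.1 and 95.4 FPKM in MII. It overlapped between the stages and did not pass (log2 change -0.16, 95% interval -0.31 to -0.01, adjusted p = 0.065), although the adjusted p was 0.0090 without MII library 1, 0.019 under median scaling and 0.048 under quantile normalization. H4C4 and H4C12 did not pass either, with changes of -0.32 and -0.04 (adjusted p = 0.35 and 0.84).

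Linker histones held the smallest sum of the 5 classes, 1376 ± 87 FPKM in GV and 869 ± 30 FPKM in MII (SD, n = 3), and of 7 tested 5 fell, 1 rose and 1 did not pass. The member that did not pass was H1-8, the linker histone of oocytes (also called H1FOO), on chromosome 22. It stood at 153, 129 and 117 FPKM in GV and at 123, 141 and 133 FPKM in MII. The MII libraries lay within the range of the GV libraries, and the 95% interval of the change ran from -0.23 to 0.23 on the log2 scale (adjusted p = 0.99). The interval leaves room for a modest change in either direction.

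The clustered linker genes fell. H1-4 stood at 782, 683 and 706 FPKM in GV and at 356, 385 and 369 FPKM in MII (log2 change -0.96, adjusted p = 1.29e-05). H1-6, a linker histone known from the testis, stood at 177, 166 and 156 FPKM in GV and at 69.4, 69.3 and 63.2 FPKM in MII (log2 change -1.29, adjusted p = 4.39e-06). H1-2 fell by 0.24, from 344, 324 and 333 FPKM to 281, 289 and 275 FPKM, which is small beside the other clustered linker genes although the stages did not overlap (adjusted p = 0.0011). H1-4, the most abundant linker RNA in GV, thus exceeded H1-2 in both stages in FPKM. H1-12 and the replication-independent H1-10 fell by 1.33 and 1.17 from GV means of 3.55 and 3.51 FPKM, or by 0.56 and 0.50 with a pseudocount of 5. H1-7, known as a linker histone of spermatids, rose by 0.26 from 12.9 ± 0.6 to 15.6 ± 0.7 FPKM (SD, n = 3; adjusted p = 0.016). That call was lost without GV library 2 (adjusted p = 0.053) or MII library 2 (0.051), and under median scaling (0.0503).

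**Figure D2:**
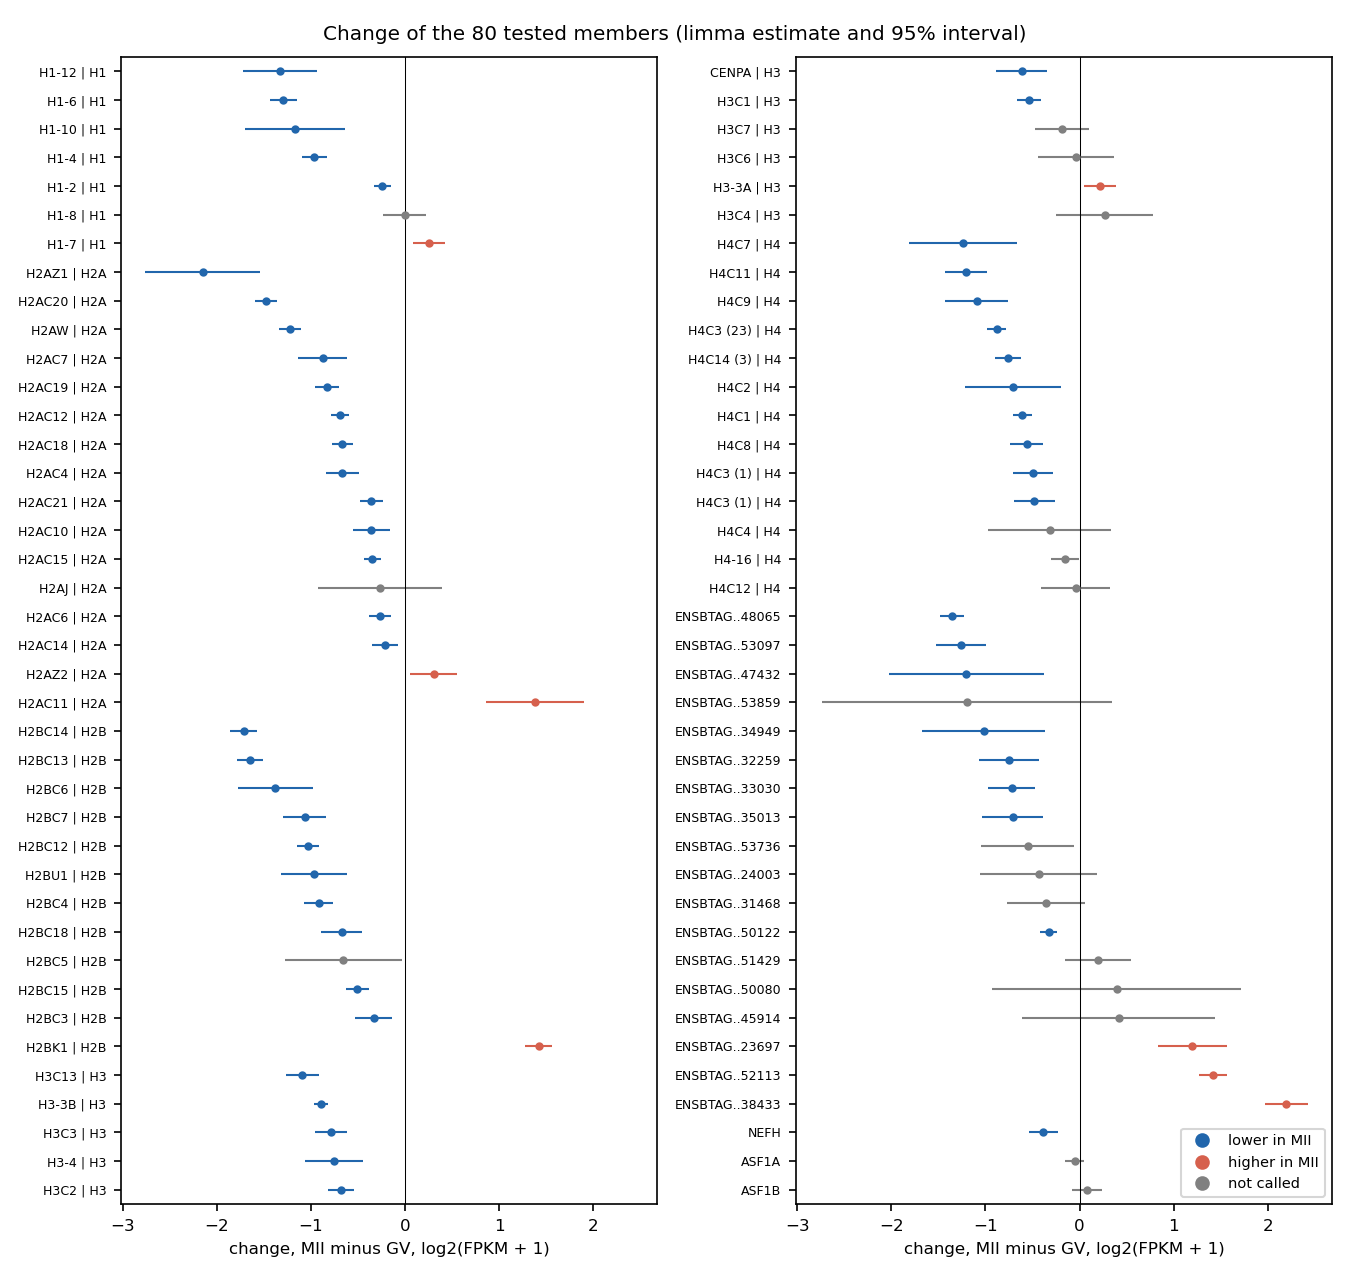
Change from GV to MII in log2(FPKM + 1), with its 95% interval from the limma fit, for the 80 tested members ordered by histone class and change; colours mark the 54 lower, 8 higher and 18 not called. Most points lie left of 0 in every class, and the points far to the right are H2AC11, H2BK1 and 3 genes without a symbol.

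Members without a symbol were mixed. Of 33, 18 were tested, and 8 fell, 3 rose and 7 did not pass. The largest rise of any member was that of ENSBTAG00000038433 (chromosome 1, 7246094 to 7246462, plus strand), which stood at 22.6, 29.6 and 28.9 FPKM in GV and at 124, 123 and 133 FPKM in MII (log2 change 2.20, adjusted p = 3.76e-06). Its MII level was 4.68 times the GV level. ENSBTAG00000052113 on the X chromosome stood at 22.3, 22.1 and 20.2 FPKM in GV and at 60.5, 61.6 and 55.6 FPKM in MII (log2 change 1.42, adjusted p = 3.68e-06). ENSBTAG00000023697 on chromosome 11 rose by 1.20 from 20.6 ± 4.4 FPKM (SD, n = 3). For these 3 genes the stages did not overlap. ENSBTAG00000023697 lies within the span of TTF1 on the opposite strand.

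Among those that fell, ENSBTAG00000033030 (chromosome 29) stood at 161, 199 and 190 FPKM in GV and at 121, 94.8 and 117 FPKM in MII (log2 change -0.72, adjusted p = 0.000845). ENSBTAG00000048065 (chromosome 11) stood at 97.6, 99.96 and 105 FPKM in GV and at 38.3, 36.7 and 41.3 FPKM in MII (log2 change -1.36, adjusted p = 2.5e-06). In both, all MII libraries were lower. The first lies on the strand opposite OPCML and the second opposite ROCK2. ENSBTAG00000034949 and ENSBTAG00000047432 fell by 1.02 and 1.20 from GV means of 2.25 and 3.12 FPKM (by 0.36 and 0.49 with a pseudocount of 5), and with single libraries left out their adjusted p reached 0.053 and 0.071. The first lost its call without GV library 1 (0.053) or GV library 3 (0.052). The second lost it without GV library 2 (0.066), GV library 3 (0.064), MII library 1 (0.061) or MII library 2 (0.071). ENSBTAG00000053859 was listed at 0 in MII libraries 1 and 2 and at 4.29 FPKM in library 3, and it did not pass (adjusted p = 0.15), although without MII library 3 the adjusted p was 0.0051. The summed level of the unnamed members was 675 ± 38 FPKM in GV and 614 ± 42 FPKM in MII (SD, n = 3), 91.1% of GV.

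Of the 3 genes that encode no histone, 1 fell. ASF1A stood at 87.7 ± 2.7 FPKM in GV and 84.5 ± 3.0 FPKM in MII, and ASF1B at 59.6 ± 1.3 and 63.2 ± 5.7 FPKM (SD, n = 3), and neither passed the test (adjusted p = 0.34 for each). Without MII library 1 ASF1B had an adjusted p of 0.023 (log2 change 0.16), and under median scaling ASF1A had one of 0.035 (log2 change -0.12). NEFH fell by 0.39, from 35.2, 30.7 and 33.3 FPKM to 24.1, 24.8 and 26.2 FPKM (adjusted p = 0.0017). Without these 3 genes, 53 of 77 tested members fell and 8 rose.

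Many members overlap another gene of the table, mostly on the opposite strand. That was so for 36 of the 102 members. The libraries mark the strand, but the sources used here do not say whether reads were counted by strand. Nor do they say how reads matching several near-identical copies were assigned. That limit holds for every histone class, and members that share reads are not independent in the counts of falls and rises. Among the 48 tested members that no other gene of the table overlaps, 29 fell and 7 rose, with a median change of -0.66. Among the 32 tested members with an overlapping gene, 25 fell and 1 rose, with a median of -0.59.

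Of 27 tested genes of histone mRNA processing and transcription, 8 rose and 11 fell, beside 32.0% and 28.8% of all genes tested, with a median change of -0.07. SLBP, the protein that binds the histone stem-loop, fell by 0.12, from 184 ± 1 FPKM in GV to 169 ± 7 FPKM in MII (SD, n = 3; adjusted p = 0.033). SLBP2, its oocyte relative known from frogs, stood at 348, 393 and 377 FPKM in GV and at 612, 589 and 611 FPKM in MII, a rise of 0.70 (adjusted p = 2.76e-05). All 3 MII libraries were above all GV libraries for SLBP2. CASP8AP2, a scaffold of histone locus bodies, fell by 0.79, and ERI1, an exonuclease that trims the stem-loop end, fell by 0.43. LSM4, a subunit of the ring that binds RNA ends during decay, rose by 0.95.

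Of 39 tested genes of histone deposition, 6 rose and 13 fell, beside the same shares of all genes, with a median of -0.05, and the list includes ASF1A and ASF1B, which are also members. NPM2, nucleoplasmin, which stores histones in eggs, stood at 291, 259 and 294 FPKM in GV and at 701, 722 and 576 FPKM in MII (log2 change 1.24, adjusted p = 3.1e-05). Every MII library was well above every GV library. HJURP, the chaperone of CENPA, fell by 0.27. CHAF1A, the large subunit of the replication-coupled assembly factor, rose by 0.38. Of 12 genes that mark dividing cells, 7 fell and 3 rose, with a median of -0.34, and their summed level was 595 to 618 FPKM in GV and 573 to 606 FPKM in MII.

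The m6A lists showed histone genes mostly in MII. A peak is a stretch where the immunoprecipitated RNA exceeded the input, and its enrichment is the log2 ratio given by the authors in their list. The GV list held 13 peaks in 10 members and the MII list 38 peaks in 35 members. Both lists marked 7 members, the MII list alone 28, the GV list alone 3 and neither list 64. Without ASF1A, ASF1B and NEFH, the GV list marked 7, the MII list 33 and both lists 5 of 99 members. Of the 80 tested members, 12.5% had a GV peak and 43.8% an MII peak. Over all protein-coding genes averaging 1 FPKM or more the shares were 57.3% and 78.1%. With 1 list per stage these shares have no replicate spread, and the depth of the immunoprecipitated libraries was not analysed here.

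Members are short genes. Their median genomic span was 492 bp, against 23938 bp for other protein-coding genes averaging 1 FPKM or more. Among genes with a span of at most 1000 bp, 1 of 46 members (2.17%) had a GV peak, against 74 of 308 other genes (24.0%). In MII the counts were 18 of 46 members (39.1%) and 105 of 308 other genes (34.1%). With a further limit of 100 FPKM, 1 of 16 members and 10 of 17 other genes had a GV peak, and 11 of 16 and 13 of 17 had an MII peak. These are counts from 1 list per stage, with no test of the difference, and the part of gene length in the shares above was not tested further.

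**Figure D3:**
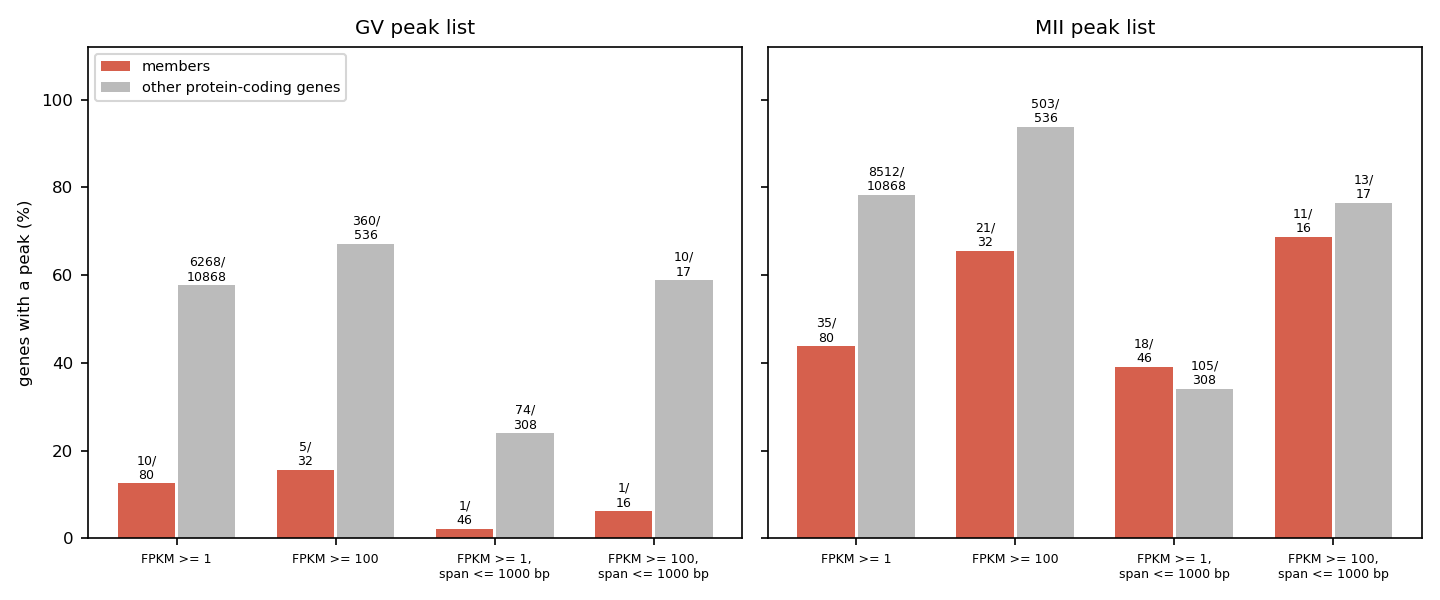
Percentage of genes with at least 1 deposited m6A peak in the GV list (left) and the MII list (right), for members and for other protein-coding genes, in 4 strata of mean input level and genomic span; the numbers over the bars are genes with a peak over genes in the stratum. In GV the bars of the members are the lower in every stratum, while in MII they exceed the other genes in the stratum of short genes at 1 FPKM or more.

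By class, the GV list marked 4 of 7 H1 members, 1 of 15 H2B members, 1 of 12 H3 members and none of the 17 H2A or 15 H4 members. The MII list marked 6 of 7 H1, 12 of 17 H2A, 5 of 15 H2B, 4 of 12 H3 and 2 of 15 H4 members. All 8 members of the cluster on chromosome 3 had an MII peak, and none had a GV peak, although the MII peak of H4C14 had an FDR of 0.11. An FDR under 0.05 was reached by 11 of the 13 GV and 32 of the 38 MII member peaks. Abundance went without a peak in part: of the 32 members at 100 FPKM or more, 10 had no peak in either list. These were H2AC12, H3C3, H3C2, H2BC14, H2BC15, H4C8, H4-16 and the 3 H4C3 copies. H2AC12 stood at 2381 FPKM on average without a peak, while H2AC7 at 68.9 FPKM had one.

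Of the 7 linker genes, 4 were marked at both stages. H1-2 had a GV peak with an enrichment of 1.19 over the first 25.6% of the gene (chromosome 23, 31876303 to 31876775) and an MII peak of 1.58 over the whole gene. H1-4 had enrichments of 0.75 in GV and 1.68 in MII, H1-6 of 1.51 and 1.80, and H1-8 of 0.70 and 1.14. In all 4 the MII value was the higher. H1-7 and H1-10 had a peak in the MII list, at 1.33 and 1.15, the latter with an FDR of 0.13. The H1-8 peaks lay near the 3′ end of the gene's span, at chromosome 22, 56187970 to 56190240 in GV and 56187881 to 56190270 in MII.

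H3-3A and NEFH carried the strongest GV enrichments among members. The GV peak of H3-3A was short, covered the stop codon (chromosome 16, 29087321 to 29087501) and had an enrichment of 4.56. Its MII peak ended at the same base, began much further upstream at 29082615 and had 1.69. Peak starts and ends are genomic positions, so a long span can include bases that are absent from the mRNA. NEFH had 3 GV peaks of 1.08, 2.43 and 4.73 and 1 MII peak of 3.16 over its 3′ part. H2BK1, the H2B gene whose RNA rose, had a GV peak of 3.27 at its stop codon (chromosome 4, 113782741 to 113782800) and no MII peak.

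In MII the highest enrichments were in the chromosome 3 cluster. H2AC20 had 4.1 over its whole genomic span (20720417 to 20725138, minus strand). ENSBTAG00000050122 had 3.24 in what the authors annotate as its 5′ UTR (20724732 to 20725150, plus strand). These peaks overlap on opposite strands. H2BC18 had 2.21, H3C1 2.56, H3-3B 2.32 and H2BC4 2.18. H2AC19 had 1.66, H2BC13 1.62 and H4C1 1.25. Low enrichments were found too, at 0.49 for H2AC15 and 0.70 for H2AC18. Peaks of 2.73 at H2BC12, H2AJ and ENSBTAG00000050080 had FDRs of 0.27, 0.27 and 0.032 in the authors' list.

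**Figure D4:**
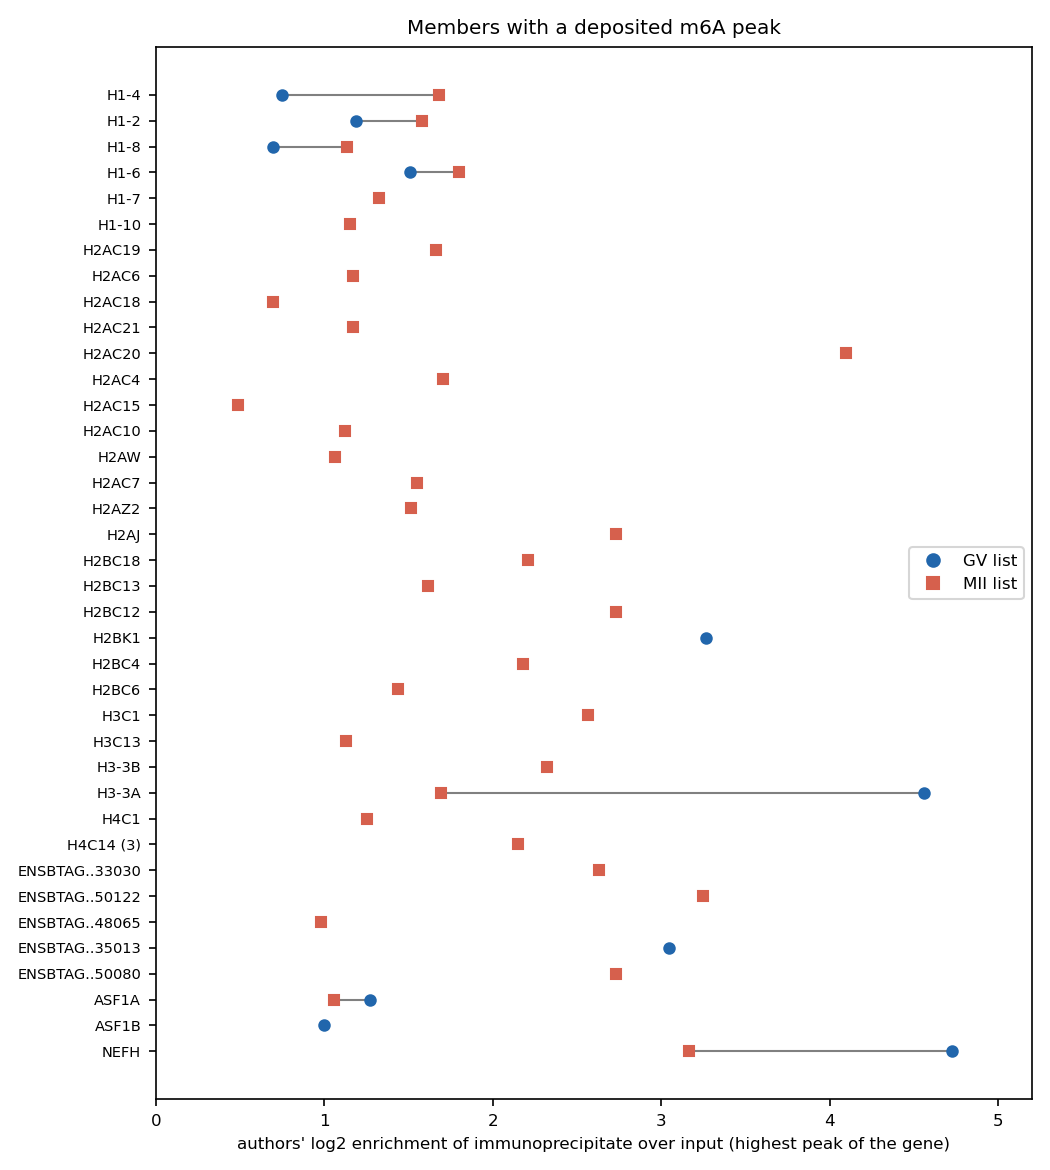
The authors' log2 enrichment of immunoprecipitate over input for the highest peak of each of the 38 members with a peak, with circles for the GV list and squares for the MII list, joined where a member has both. Squares alone mark 28 members, circles alone 3 (ASF1B, H2BK1 and ENSBTAG00000035013), and H3-3A and NEFH are the joined members with the highest GV values.

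The median enrichment of member peaks was 1.27 in GV, below the 2.62 of the whole GV list, and 1.57 in MII, near the 1.67 of the whole MII list. These medians, and the exonic and overlap shares that follow, include ASF1A, ASF1B and NEFH, which encode no histone. The GV median is the value of the ASF1A peak. Peaks named exonic by the authors made up 8 of 13 member peaks in GV and 27 of 38 in MII, and the shares over the whole lists were 65.6% and 61.6%. Of 13 GV peaks in members, 8 (61.5%) overlapped an MII peak of the same strand by 1 bp or more, against 64.1% of all GV peaks. Of 38 MII peaks in members, 7 (18.4%) overlapped a GV peak, against 39.9% of all MII peaks. The MII list is the longer, with 22298 peaks against 14222, so these shares describe each list in turn. In members of at most 2500 bp, the centre of the MII peak lay beyond the middle of the gene, towards the 3′ end, for 8 of 14 plus-strand and 4 of 9 minus-strand peaks. In other genes of that span the counts were 166 of 361 and 126 of 275. Of these MII peaks in members, 8 plus-strand and 1 minus-strand peaks covered most of the gene, so their centres say little about position.

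The authors' deposited table of differential peaks held 16 peaks in 16 members, 15 higher and 1 lower in MII, all at an FDR under 0.05. In the authors' deposited table as a whole, 63.0% of 8682 peaks were higher and 31.0% lower at that FDR. The median log2 change in the authors' deposited table was 3.86 over the member peaks (from 16 values) and 1.03 over all peaks. The 1 lower peak in the authors' deposited table was that of NEFH, at -0.69, and the peaks of the other 15 members were higher. The authors' deposited table marks 14 of the 16 peaks as significant, but not those of NEFH and H1-2. How the 3 libraries of each kind entered these values is not stated in the sources, and no value per library is given for them.

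The core histones carried the high values. In the authors' deposited table the peak of H2BC4 had a log2 change of 5.29, that of H2AC20 4.72, that of H3C1 4.54, and those of H2AC19 and H2AC7 4.25 and 4.24. The authors' deposited table gave 4.87 for ENSBTAG00000050122, 3.95 for ENSBTAG00000033030, 2.89 for H2BC18 and 2.55 for H2AC4. Among the variants it gave 3.76 for H2AZ2 and 3.65 for H3-3B, again from the authors' deposited table. The linker genes, which had a GV peak already, were the lowest of the 15 higher peaks in the authors' deposited table, at 0.69 for H1-2, 1.01 for H1-6 and 1.09 for H1-4. Of the 15 higher peaks in the authors' deposited table, 12 were in members without a GV peak. H2AC11 had the highest log2 change in the authors' deposited table, 5.87, at a gene with a mean GV level of 0.829 FPKM and no peak in either list.

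The peaks of H2AC20 and ENSBTAG00000050122 cover nearly the same bases. In the authors' deposited table they lie at 20724992 to 20725138 on the minus strand and 20725001 to 20725150 on the plus strand of chromosome 3. Their log2 changes come from 1 locus on both strands, and which strand carries the mark was not tested.

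Of the 15 members with a higher peak in the authors' deposited table, the input RNA fell in 13 and rose in 2, H2AZ2 and H2AC11. Over the 3617 tested genes with a higher peak at that FDR in the authors' deposited table, the input fell in 38.1% and rose in 29.9%. Whatever their peaks, the input fell in 54 of all 80 tested members and in 29 of the 32 at 100 FPKM or more. Whether a higher peak goes with a fall among members was not tested. For H2BC18, an input change of -0.67 stood beside 2.89 in the authors' deposited table. For H3-3B, an input change of -0.89 stood beside 3.65 in the authors' deposited table. An enrichment is a ratio to input, so its change and the input change share the input libraries, and no correlation between them is given.

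**Figure D5:**
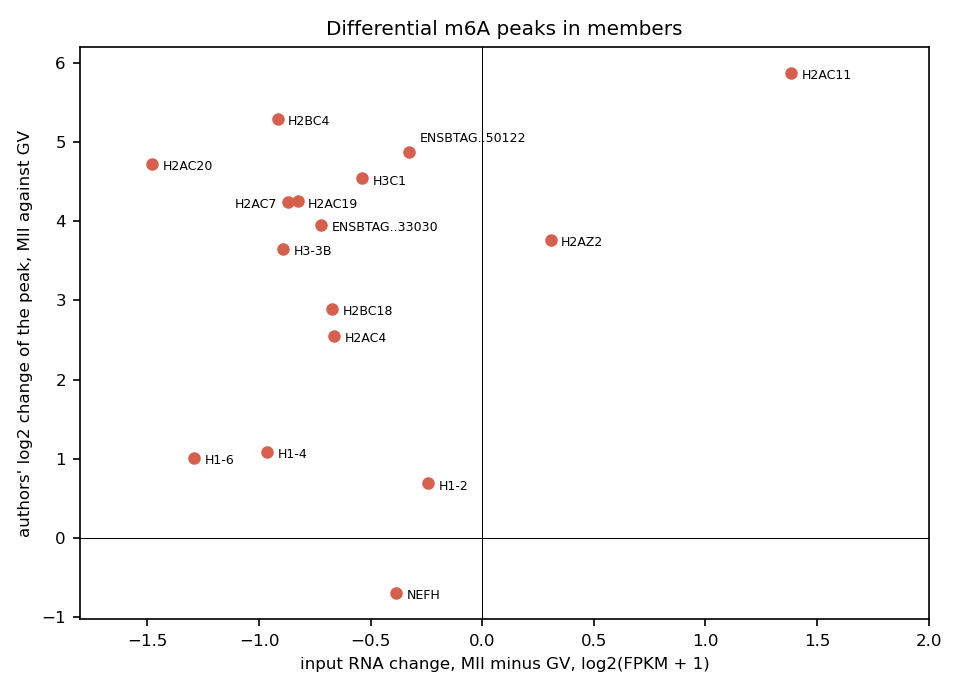
Log2 change of each differential m6A peak in the authors' deposited table (vertical axis, MII against GV) against the input change of the same member in log2(FPKM + 1) (horizontal axis), for 16 members; both axes share the input libraries. The 13 members with a higher peak whose RNA fell lie at upper left and H2AZ2 and H2AC11 at upper right. NEFH, whose RNA also fell, lies at lower left.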

How the data were processed

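Input and m6A-immunoprecipitated libraries, 3 of each per stage, were grouped by their titles. Oligo(dT) beads were used to select poly(A) RNA in repeated rounds, per the labels' protocols, and the RNA was fragmented and pulled down with an antibody against m6A, and strand-marked libraries were sequenced in pairs. Per the submitters' processing notes, the tools were HOMER 4.10, edgeR 4.1, StringTie 2.1.2, HISAT2 2.0.4 and fastp 0.19.4, whose roles are not stated. The sources used here do not name the peak caller or build, nor how strand and multiply matching reads were handled.

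The FPKM values of 6 input libraries were deposited by the authors per gene. Log2 enrichments, p-values and FDRs of peaks, 1 list per stage, and the log2 changes of differential peaks were used as the authors deposited them. Peak starts count from 0 in the files and are printed counting from 1. No count test was run, because whole reads could not be recovered from the FPKM steps, and depth is an estimate.

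The members and gene lists were chosen with earlier results of these data known. Some rows of the table had emptied annotation cells, so their genes could be members by symbol alone. Changes were fitted with limma 3.58.1 (R 4.3.3; 2-sided, eBayes with a trend) on log2(FPKM + 1), which understates changes of low genes. Genes averaging 1 FPKM or more were tested, with Benjamini-Hochberg adjustment over all genes at 0.05. The fit was tested on simulated data. Members with that mean could be named, with values per library for those at 5 FPKM or more, for variants and for members with a peak, of which a selection is printed. Clusters were runs of at least 3 members with gaps of at most 100 kb. Alternatives changed the pseudocount, the filter, the scaling or the variance model, left out each library, added a replicate block, or used stricter peak thresholds or another overlap. Sequences were not used here.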

Additional observations from a re-analysis of the deposited data

How the results depend on the processing

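Of 62 called members, 54 were tested in all 17 alternatives run for single genes, and 48 of these kept their call; the other 8 fell out of the filter at 5 FPKM, and 6 kept it in the 16 others. The log2 change of a called member moved by over 1.5 times in 8 members under quantile normalization, 11 with a pseudocount of 5 and 4 with 0.1. With single libraries left out, 58 to 64 members were called, 51 to 58 lower and 6 to 7 higher. Median scaling left 5 higher. Leaving out members that another gene of the table overlaps, an alternative chosen after seeing the data, gave 36 called and 29 lower, with fewer members by construction. Peaks above the median enrichment of their list marked 4 members in GV and 16 in MII, and a reciprocal overlap of 50% left 3 shared GV peaks.

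H2AC6 turned to 0.12 under quantile normalization. H1-8, never called, was 0.018 with array weights and -0.088 to 0.11 with single libraries left out. Left-out ranges that crossed 0 without a call were -0.34 to 0.81 for ENSBTAG00000050080, -0.18 to 0.10 for H3C6 and -0.17 to 0.087 for H4C12. The cause was not tested.

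With the replicate block, 64 members were called, 57 lower and 7 higher; H3-3A lost its call (adjusted p = 0.059) and H2BC5, ENSBTAG00000031468 and ENSBTAG00000053859 gained one (adjusted p = 0.0066, 0.035 and 0.027). Deviations of same-numbered libraries correlated at -0.055, -0.060 and 0.013. Members under 1 FPKM lie near 0, and the part of depth in their values was not tested. The peak lists are 1 per stage, with the use of replicates not stated.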
